A study of Mus musculus with 4 samples.

Results

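E2A peaks were examined at the 5 genes that encode the signaling chains of the T cell receptor complex and the pre-TCR alpha chain, Cd3e, Cd3d, Cd3g, Cd247 and Ptcra. A peak was counted when its midpoint lay in the gene body or within 50 kb of it. By this rule 34 of 17532 peaks from DP cells and 4 of 1516 peaks from iNKT cells were found, at 5 of 22381 annotated genes. The genes form 3 loci, since Cd3g, Cd3d and Cd3e lie side by side on chromosome 9 and share most of their peaks, whereas Cd247 is on chromosome 1 and Ptcra is on chromosome 17. The peaks come from ChIP-Seq, where the DNA that a protein sits on is pulled down with an antibody, here V-18 against E2A, and sequenced.

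All cells came from the thymus of L-DKO mice, in which Id2 and Id3 carry floxed alleles (f/f) and are deleted in developing T cells by LckCre, a Cre under the Lck promoter. The mice were aged 3 to 5 weeks and were of C57BL/6 or mixed C57BL/6 and 129 background. DP cells were sorted as CD1dTet- CD4+ CD8+ and iNKT cells as CD1dTet+ TCRβ+, each as a pool from 3 to 4 mice. There was 1 E2A library and 1 input library for each cell type, and cells with intact Id genes were not analysed here. The differences between DP and iNKT cells below therefore have no replicate error and no test. The value of a peak is its MACS score, which is -log10 of the peak's p-value multiplied by 10, and the lowest score in either list was 50. The DP list had a median score of 141 and the iNKT list of 79.6. The number of reads per library is unknown, so scores were ranked within a list and not compared as amounts between lists. The peak lists hold no expression values, so the identity of the cells rests on the sort gates.

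The T cell receptor has no signaling domain of its own. It reaches the cell surface together with the CD3 gamma, delta and epsilon chains and the zeta chain, encoded by Cd247, and these chains carry the tyrosine motifs that Lck phosphorylates after ligand binding. Before the alpha chain is rearranged, the pre-TCR alpha chain encoded by Ptcra pairs with the rearranged beta chain, and signals from this pre-TCR take thymocytes to the DP stage. E2A is an E protein that binds E-boxes, and the Id proteins hold E proteins away from DNA. Ptcra is a textbook target of E proteins.

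The sequences below show E-boxes just upstream of the start site of each gene, all within DP peaks. They were read from the mm9 genome on the strand of the gene, 5′ to 3′. Capitals mark the E-boxes CAGGTG (or its reverse complement CACCTG) and CAGCTG, which were searched on both strands. Other E-box sequences were not searched, and all E-box counts below are of these sequences only.
Cd3g, chr9:44788525-44788674, minus strand: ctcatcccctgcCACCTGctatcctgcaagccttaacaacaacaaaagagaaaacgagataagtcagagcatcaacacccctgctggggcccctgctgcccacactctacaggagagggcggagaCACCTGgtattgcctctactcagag
Cd3d, chr9:44789716-44789865, plus strand: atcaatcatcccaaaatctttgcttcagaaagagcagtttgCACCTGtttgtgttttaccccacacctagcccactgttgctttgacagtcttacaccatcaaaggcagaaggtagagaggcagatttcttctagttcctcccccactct
Cd3e, chr9:44817684-44817783, minus strand: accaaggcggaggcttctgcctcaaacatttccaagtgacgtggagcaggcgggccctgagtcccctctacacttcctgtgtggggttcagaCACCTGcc
Cd247, chr1:167718702-167718811, plus strand: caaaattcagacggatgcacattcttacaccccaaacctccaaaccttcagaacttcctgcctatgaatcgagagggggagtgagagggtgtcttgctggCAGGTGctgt
Ptcra, chr17:46900663-46900772, minus strand: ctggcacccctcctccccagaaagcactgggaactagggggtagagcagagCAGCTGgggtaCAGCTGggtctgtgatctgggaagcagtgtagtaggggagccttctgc

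In the 250 bp before the start site, Cd3g held CAGGTG at positions -148 and -35, Cd3d at -119, Cd3e at -18 and Cd247 at -10, counted to the first base of the site from the start site of the gene. CAGGTG was present in this stretch at 17% of the 22381 genes. Ptcra held no CAGGTG there and had CAGCTG at -179 and -168, both printed above, and at -98, and CAGCTG was present at 11.8% of all genes. The other 4 genes had no CAGCTG in this stretch. The RefSeq start sites of Cd3g and Cd247 were the same as those used here, and those of Cd3d, Cd3e and Ptcra lay at -7, -21 and -119 bp from them. The CAGGTG of Cd3e and the CAGCTG of Ptcra at -98 therefore fall within the RefSeq transcripts.

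In DP cells, all 5 start sites were covered by an E2A peak. A start site was covered in this way at 9.35% of all genes. The 5 start sites lay in 4 peaks, because Cd3g and Cd3d are transcribed away from each other and their start sites, separated by 1361 bp, share a peak. This peak had the highest score at the Cd3 cluster, 2314, and ranked 517 in the DP list. The peak over the Cd3e start had a score of 746 and ranked 2304. The peak over the Cd247 start had a score of 575 and ranked 2941, and that over the Ptcra start had a score of 519 and ranked 3246. All of them were thus above the median of the DP list.

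In iNKT cells, a peak covered the start sites of Cd3g and Cd3d, and none covered those of Cd3e, Cd247 or Ptcra. A start site was covered by an iNKT peak at 0.353% of all genes. The iNKT peak was the same shared one, from 44787854 to 44790436 on chromosome 9, with a score of 147 and a rank of 326 in its list. The count of 2 genes therefore rests on 1 peak.

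**Figure D1:**
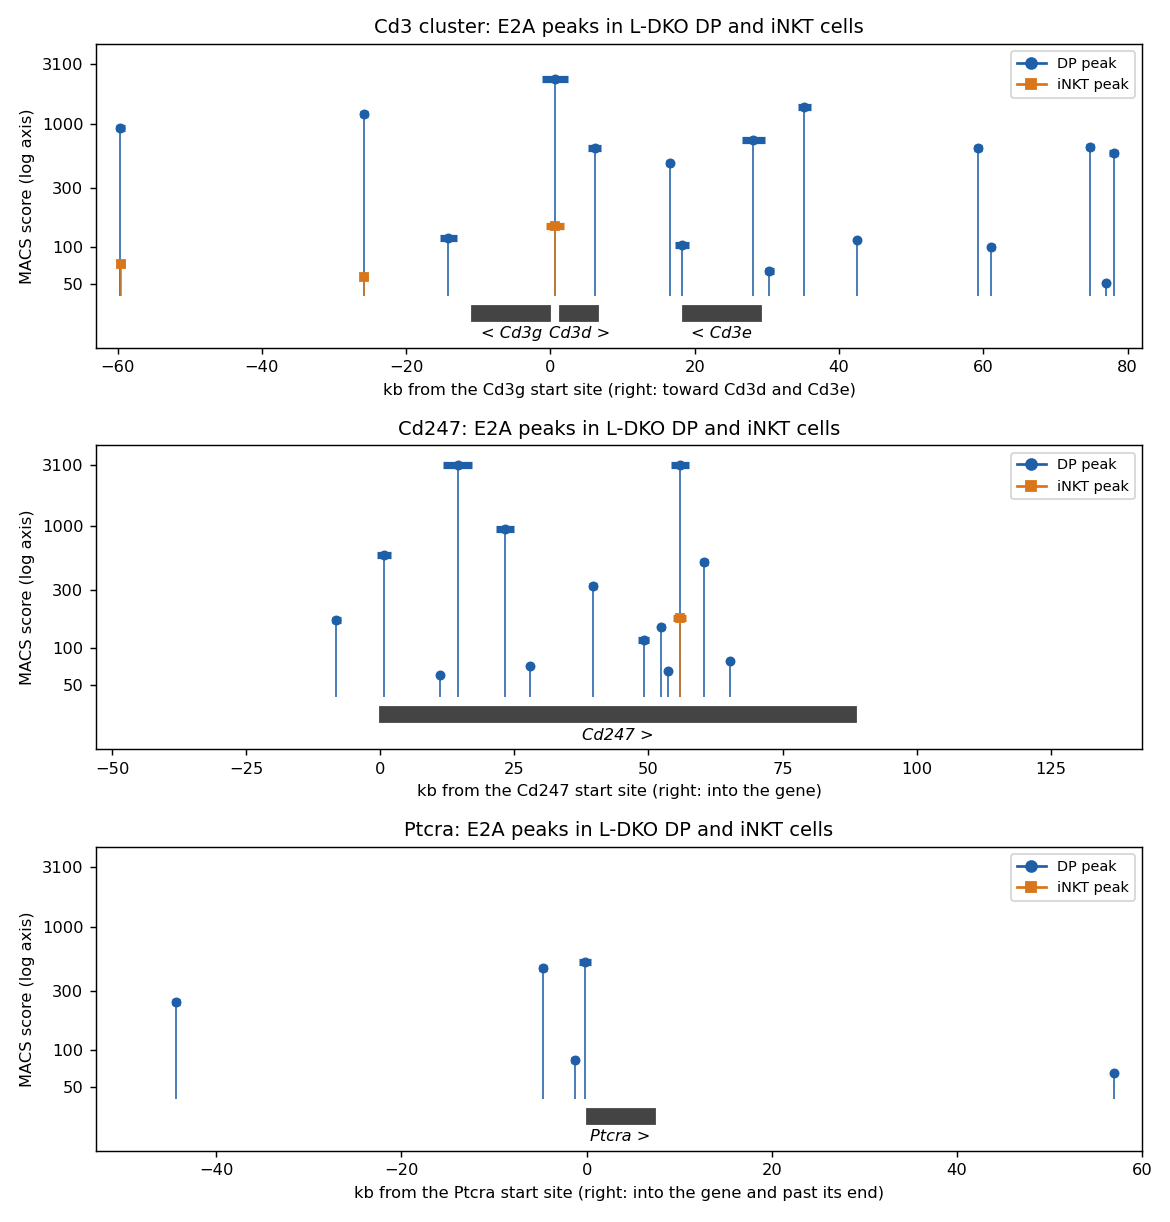
Maps of the Cd3 cluster, Cd247 and Ptcra, with the distance in kb from the start site of Cd3g, Cd247 or Ptcra on the x axis and the MACS score on a logarithmic y axis. Each DP peak (blue circle) and iNKT peak (orange square) is drawn at its midpoint, with a horizontal bar for its extent and dark boxes for the genes. The 4 iNKT peaks all sit at the position of a DP peak, and the Ptcra panel has DP peaks only.

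Cd3g, Cd3d and Cd3e, the genes of the gamma, delta and epsilon chains, had 16 DP peaks in a shared window of 140.0 kb. For each gene alone, Cd3e had 15, Cd3g 11 and Cd3d 10 of them. Only 8 of the 16 had the start site of a Cd3 gene as their nearest, and the others were nearest to Ube4a, a ubiquitin ligase gene, Atp5l, a subunit gene of the mitochondrial ATP synthase, Mpzl2 or Mpzl3, genes of surface proteins with immunoglobulin domains. The scores ranged from 50.6 to 2314, with a median of 607, and 3 of the 16 were in the top 10% of the DP list by score.

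The shared peak of Cd3g and Cd3d, from 44787370 to 44791005, was 3636 bp wide. Its midpoint lay 0.673 kb upstream of the Cd3g start and 0.689 kb upstream of the Cd3d start, so it was centered between the genes, and it ran 1145 bp into Cd3g and 1130 bp into Cd3d. It held 8 E-boxes, 3 of them between the start sites. These 3 are the CAGGTG sites of Cd3g and Cd3d printed above. Neither CAGGTG nor CAGCTG lay within 100 bp of its midpoint, and the nearest such site lay at -527 bp from it.

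Cd3d had a second DP peak at its other end, from 44793787 to 44795489, with a score of 636 and a rank of 2678. Its midpoint lay 4.76 kb downstream of the start, in the untranslated part of the last exon. It overlapped no iNKT peak.

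Cd3e had DP peaks on both sides. The peak over its start, from 44815067 to 44818213, was 3147 bp wide with its midpoint in the second intron, and it held 7 E-boxes. The highest was upstream, from 44822823 to 44824608, with a score of 1367, a rank of 1122 and its midpoint 6.04 kb from the start. Past the end of the gene, there was a peak from 44804544 to 44805560 with a score of 483, and its neighbor, whose midpoint lay just outside the gene, had a score of 103. Smaller peaks lay 1.17 kb and 13.3 kb upstream, with scores of 63.1 and 113. No iNKT peak lay nearer to the Cd3e start than the one between Cd3g and Cd3d, 28.5 kb away.

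The upstream Cd3e peak is shown here because it was the highest peak nearest to Cd3e and was found in DP cells only. It held 4 CAGGTG sites and no CAGCTG, and the GC content of the 200 bp at its midpoint was 34.0%, the lowest among the 34 peaks. The CAGGTG nearest to its midpoint was in this stretch.
Cd3e upstream, chr9:44823879-44823998, minus strand: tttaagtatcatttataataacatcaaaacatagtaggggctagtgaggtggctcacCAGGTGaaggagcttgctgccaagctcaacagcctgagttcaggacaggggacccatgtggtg

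The remaining DP peaks of the cluster were closer to other genes. A peak in an intron of Ube4a, 25.9 kb downstream of the Cd3g start, had a score of 1200.2 and ranked 1325. A peak over the Atp5l start, 59.6 kb downstream of the Cd3g start, had a score of 937 and ranked 1805. A peak over the start of Ube4a had a score of 118. On the side of Cd3e, 2 peaks near Mpzl2 had scores of 639 and 98.9, and 3 peaks at Mpzl3 had scores of 652, 577 and 50.6. These peaks are within 50 kb of a Cd3 gene, and whether they act on it was not tested.

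The Ube4a and Atp5l sites were the other 2 regions of the cluster with an iNKT peak. The iNKT peak in the Ube4a intron stood at rank 1203 of 1516 with a score of 56.6, and the one at Atp5l at rank 868 with a score of 72.0. The iNKT peak between Cd3g and Cd3d, at rank 326, stood well above both. The Atp5l site held neither CAGGTG nor CAGCTG in either list. The Ube4a site held 2 CAGGTG sites, and the one nearest to its midpoint is shown as an example of a site with peaks in both cell types.
Ube4a intron, chr9:44762622-44762741, minus strand: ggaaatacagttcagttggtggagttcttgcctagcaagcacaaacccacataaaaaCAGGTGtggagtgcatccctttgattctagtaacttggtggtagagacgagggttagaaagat

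Cd247, the gene of the zeta chain, had 13 DP peaks, and Cd247 had the nearest start site for each of them. One lay 8.17 kb upstream, with a score of 169, and none lay past the end of the gene. The other 12 had their midpoints in the first intron, which is 66.3 kb long and makes up 74.8% of the gene. These peaks covered 35.9% of the intron. The last of them ended 0.879 kb before the end of the intron, and no DP midpoint lay in the rest of the gene.

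A pair of the intronic DP peaks reached a score of 3100, a value shared by 258 DP peaks and exceeded by 26. The score does not order these 258 peaks, so the tie need not mean equal binding. The first, from 167730541 to 167735890 with its midpoint 14.4 kb from the start, was 5350 bp wide, the widest of the 34 peaks, and held 15 E-boxes. The second, from 167772946 to 167776344 with its midpoint 55.8 kb from the start, was 3399 bp wide and held 9. Further intronic peaks had scores of 930.1 at 23.3 kb, 501 at 60.3 kb and 324 at 39.7 kb from the start. The remaining 6, besides the peak over the start site, had scores from 60.1 to 150.2.

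Cd247 had 1 iNKT peak, from 167773374 to 167775896, with a score of 175 and a rank of 247. It had the highest score of the 4 iNKT peaks. It lay wholly inside the DP peak at 55.8 kb, and the midpoints were 10 bp apart. These distances are from the start of the gene, and relative to the nearest annotated Cd247 transcript start the DP and iNKT midpoints were upstream, at -13702 and -13712 bp. No iNKT peak was found at 14.4 kb, where the DP peak had the same score of 3100. Of the 257 other DP peaks with that score, 152 overlapped an iNKT peak, which is 59.1%.

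The stretches of both intronic sites that held the most E-boxes are shown to compare the site found in both cell types with the site found in DP cells. Each had 3 E-boxes in 120 bp.
Cd247 intron, 55.8 kb, DP and iNKT, chr1:167773883-167774002, plus strand: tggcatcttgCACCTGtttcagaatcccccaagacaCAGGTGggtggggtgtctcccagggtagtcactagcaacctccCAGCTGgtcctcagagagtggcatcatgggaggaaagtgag
Cd247 intron, 14.4 kb, DP, chr1:167732202-167732321, plus strand: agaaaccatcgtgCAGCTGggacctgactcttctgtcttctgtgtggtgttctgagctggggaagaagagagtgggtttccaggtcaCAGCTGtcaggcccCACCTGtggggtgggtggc
The stretch from the site at 55.8 kb held 2 sites of the CAGGTG type and 1 CAGCTG, and that from the site at 14.4 kb held 1 and 2. Both kinds of E-box were thus present at both sites.

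Ptcra, the gene of the pre-TCR alpha chain, had 5 DP peaks and no iNKT peak in its window of 107.4 kb. The nearest iNKT peak was 408 kb from its start and had a score of 79.7. The DP peak over the Ptcra start, from 46900052 to 46901320, had its midpoint 0.144 kb upstream and a score of 519. Next to it, 172 bp further upstream, a peak with its midpoint 1.30 kb from the start had a score of 82.6. Further upstream, the peak from 46904768 to 46905670 with its midpoint 4.68 kb upstream, had a score of 467, at rank 3571. For this peak the start site of 2310039H08Rik was slightly nearer, at 4.37 kb.

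The other 2 DP peaks in the Ptcra window were nearest to other genes. One lay 44.3 kb upstream, within BC032203, with a score of 247. The other lay 57.0 kb downstream of the start, near Ppp2r5d, a regulatory subunit gene of protein phosphatase 2A, with a score of 64.9. No Ptcra peak was in the top 10% of the DP list, whereas the Cd3 cluster had 3 such peaks and Cd247 had 2. No DP midpoint lay inside the gene body of Ptcra or Cd3g, and 3 of the 5 genes had one there, against 20.4% of all genes. Only Cd247 had an iNKT midpoint inside its body, against 2.99% of all genes.

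Ptcra had the DP peak with the most E-boxes per kb of the 34. The peak over the start held 7 in 1269 bp, 4 of them CAGCTG, which is 5.52 per kb, and 6.66% of all DP peaks held as many per kb. The median was 2.12 per kb over the 34 peaks and 2.36 per kb over all DP peaks. The peak 4.68 kb upstream held 2 CAGGTG sites, which lay close together in the stretch below. It is shown because it was the strongest Ptcra peak away from the start site.
Ptcra upstream, chr17:46905012-46905131, minus strand: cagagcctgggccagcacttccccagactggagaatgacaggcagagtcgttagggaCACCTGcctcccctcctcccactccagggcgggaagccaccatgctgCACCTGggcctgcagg

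**Figure D2:**
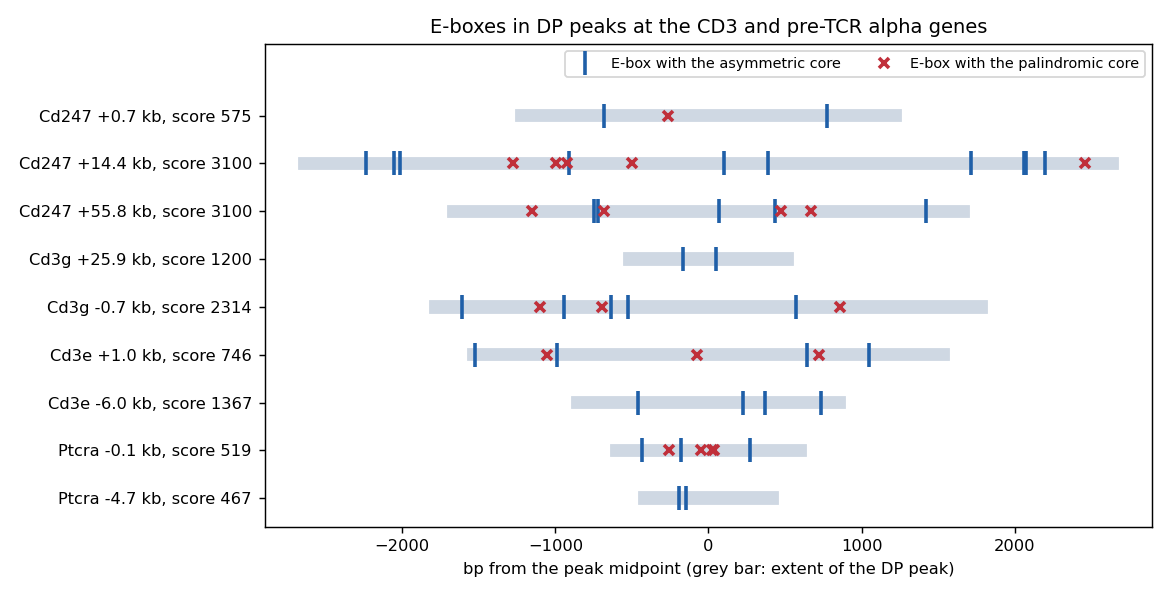
Positions of E-boxes in 9 DP peaks, namely the 4 over the start sites of the genes, those with a score of 1200.2 or more and the Ptcra peak 4.68 kb upstream. The x axis is the distance in bp from the peak midpoint, grey bars are the extent of each peak, blue ticks are sites with the asymmetric core and red crosses are sites with the palindromic core, and each row is named by the nearest of the 5 genes, the distance of the midpoint from its start and the score. The Cd247 peak at 14.4 kb holds 15 E-boxes and the Ptcra peak over the start site holds 7 in a much shorter peak.

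Each of the 5 genes had a DP peak by the rule of 50 kb, and 4 of the 5 had an iNKT peak. A DP peak was found by this rule at 53.9% of all genes and an iNKT peak at 10.4%. The 4 genes with an iNKT peak stand for 2 loci only, since the same peaks fall into the windows of Cd3e, Cd3d and Cd3g. The number of DP peaks was high against a median of 1 per gene. As many as the 15 peaks of Cd3e were found at 0.433% of genes, as many as the 13 of Cd247 at 0.737%, the 11 of Cd3g at 1.60%, the 10 of Cd3d at 2.21% and the 5 of Ptcra at 12.2%. The window of Cd247 is longer because the gene is. Per 100 kb, the counts were 13.5 for Cd3e, 9.92 for Cd3g, 9.50 for Cd3d, 6.89 for Cd247 and 4.66 for Ptcra, against a median of 0.657 over all genes.

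**Figure D3:**
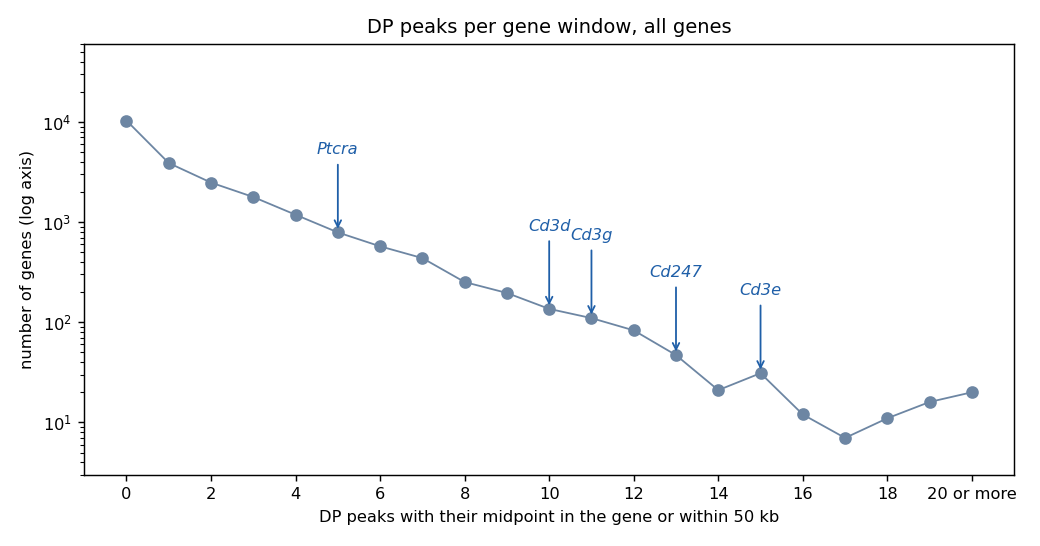
Number of genes (logarithmic y axis) by the number of DP peaks with their midpoint in the gene or within 50 kb (x axis, with 20 standing for 20 or more). Arrows mark the members, with Ptcra at 5, Cd3d at 10, Cd3g at 11, Cd247 at 13 and Cd3e at 15 peaks, all above the median of 1.

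By the highest DP score, Cd247 came before the 3 Cd3 genes, which shared their highest peak, and Ptcra was again last. A score as high as the 3100 of Cd247 was found at 2.45% of genes, as high as the 2314 shared by the 3 Cd3 genes at 4.21%, and as high as the 519 of Ptcra at 19%. Of the 34 DP peaks, 9 had a score under 100, against 37.4% of all DP peaks. Some of the peaks lay close together. At 7 places the gap between neighboring DP peaks was under 300 bp, and the smallest, between peaks in the Cd247 intron, was 28 bp.

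**Figure D4:**
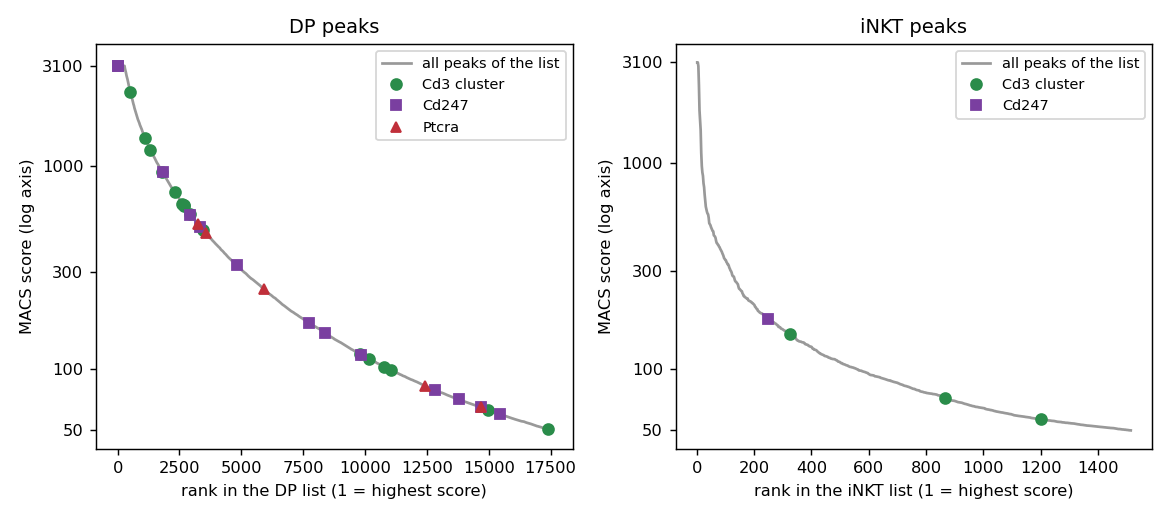
MACS score (logarithmic y axis) against rank (x axis) for all peaks of the DP list and of the iNKT list (grey lines), with the peaks at the Cd3 cluster (green circles), Cd247 (purple squares) and Ptcra (red triangles). The DP peaks of these loci run from rank 27 to rank 17392, and the 4 iNKT peaks from rank 247 to rank 1203.

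All 4 iNKT peaks overlapped a DP peak, and at least 98.0% of the bases of each were in it. The midpoints of the paired peaks were 10 to 54 bp apart. Of the whole iNKT list, 69.3% overlapped a DP peak. Read from the DP side, 4 of the 34 peaks overlapped an iNKT peak, against 5.99% of all DP peaks. Among the 5 peaks in the top 10% of the DP list, 3 did, against 30.8% of all DP peaks in that top 10%. Among the other 29, 1 did. Over all DP peaks, overlaps were likewise more frequent in the top 10%, with 540 of 1753, than in the whole list, with 1051 of 17532.

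The order of the scores was not the same in both lists. In DP cells the paired sites ranked, from the highest, as the Cd247 intron, the Cd3g and Cd3d start, the Ube4a intron and Atp5l, with scores of 3100, 2314, 1200.2 and 937. In iNKT cells the first pair kept this order, with 175 and 147, and Atp5l stood above the Ube4a intron, with 72.0 and 56.6. For the sites without an iNKT peak, the share of DP peaks of like rank that had one gives the scale. Of the 500 DP peaks nearest in rank to the Cd3e peak 6.04 kb upstream, 21.2% overlapped an iNKT peak. For the peaks over the starts of Cd3e, Cd247 and Ptcra these shares were 10.6%, 9.20% and 8.40%. Most DP peaks of these ranks, anywhere in the genome, thus overlapped no iNKT peak.

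E-boxes were also counted in the 200 bp at the midpoint of each peak, to set the loci beside the whole list. The lists do not give the place of strongest signal in a peak, so in a wide peak these 200 bp can miss it. The 34 peaks were 544 to 5350 bp wide, and the median width of all DP peaks was 984 bp. CAGGTG or CAGCTG was present at 14 of the 34 peaks, which is 41.2% (95% Wilson interval 26.4 to 57.8), and at 60.8% of all DP peaks. In the whole peak, 28 of the 34 held such a site, which is 82.4%, against 91.9% of all DP peaks. The interval covers counting error only, and the 34 peaks are neighbors at 3 loci, so they are not independent. The median GC content at the midpoints was 50.8%, beside 51% for all DP peaks.

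Other motif cores were present at the midpoints about as often as in the whole list. The Runx core ACCACA was found at 7 of the 34 peaks, against 23.8% of all DP peaks. The Tcf7 and Lef1 core TCAAAG was found at 6, against 17.4%, and the Gata3 core TTATCT at 3, against 8.87%. Among the 6 DP peaks with neither CAGGTG nor CAGCTG was the peak over the Atp5l start, which had a score of 937 and a peak in both lists. Another was the Cd247 peak at 60.3 kb, which had a score of 501. A match is a description of the sequence, and binding by these factors was not measured.

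Genes that act next to the receptor were taken from a list of 30 coreceptors, kinases, adaptors, phosphatases and other signaling genes, of which 29 were counted and 1 was not analysed here. By the same rule, 28 of them had a DP peak and 7 an iNKT peak, against 53.9% and 10.4% of all genes. The exception was Fcer1g, the gene of the Fc receptor gamma chain, which is related to the zeta chain and had no peak in either list. The median number of DP peaks was 8, against 1 over all genes, and a DP peak covered 17 of the 29 start sites, against 9.35% of all genes. The highest DP score of 3100 was reached at Zap70, the kinase that binds phosphorylated CD3 and zeta chains, at the adaptor gene Lcp2 and at the coreceptor genes Cd4, Cd8a and Cd8b1. The last 2 are neighbors and their windows overlap. Among the genes with an iNKT peak were Zap70, with 4 and a highest iNKT score of 318, Cd4, with a score of 159, Sla2, with 134, Lat, with 130.5, Lck, with 95.6, and Themis, with 75.2. Of the 29, only Sla2 had its start site covered in iNKT cells, against 0.353% of all genes.

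Genes with a similar pattern were found by the distance over 4 values, the number of peaks (as log2 of 1 plus the number) and the highest score (as log10) in each of the 2 lists, leaving out genes that share a peak with the member. A gene without a peak in a list was given a score of 50 there. Ksr1 and Igf1r were nearest to Cd3e, at distances of 0.096 and 0.100. Gimap1 and Prrc2b were nearest to Cd3d, Ikzf1 and 8430423G03Rik to Cd3g, and St8sia1 and D18Ertd653e to Cd247. Cnn3 and Slc44a3, which had the same values, were nearest to Ptcra, with 5 DP peaks, a highest DP score of 515 and no iNKT peak. The likeness covers 2 libraries only.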

How the data were processed

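DNA bound by E2A and input DNA were sequenced from L-DKO DP and iNKT cells, with 1 library of each kind per cell type. According to the study's methods, Bowtie 1.1.2 was used by the authors for alignment to mm9, with reads of more than 1 reportable position dropped, and MACS 1.4.2 with default parameters for the peaks. The deposited lists give a position and a score for each peak, and are named as E2A against input. Dropping such reads lowers the coverage of repeated sequence. Peaks were called once per cell type, so no replicates could be compared. Depth is unknown and inputs are not analysed here.

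Positions were written counting from 1. Genes came from GENCODE M1 on NCBIM37, the assembly of mm9, with the protein-coding records and Ptcra, which that release types as an immunoglobulin gene. Peaks of both lists overlapped if they shared at least 1 bp. RefSeq start sites were placed by exact match of RefSeq promoter sequences (GRCm38.p6) to mm9, and all 5 matched once. Tests of the functions on simulated data passed in 7 of 7 checks.

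Alternatives were other windows, score minimums, overlaps, motif lengths and start sites. The members, lists and comparisons were chosen with earlier results of these data known. Peaks named in the text are those that the rule of 50 kb gave, some of them nearer to other genes, and sequence is printed from upstream of the start sites, from the Cd247 and Ube4a sites with an iNKT peak, from the Cd247 site at the highest DP score without one, from the highest DP peak nearest to the Cd3e start and from the highest Ptcra peak away from its start. The Atp5l site, which held neither CAGGTG nor CAGCTG, is not printed. Pathway genes named are those with the highest DP scores or an iNKT peak, and 1 of them is not reported here. The comparison with peaks of like rank was added after the values were seen. Python 3.11.15, numpy 2.4.6, scipy 1.17.1 and matplotlib 3.10.9 were used.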

Additional observations from a re-analysis of the deposited data

How the results depend on the processing

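With gene bodies alone, 14 DP peaks and 1 iNKT peak remained, that iNKT peak overlapped a DP peak, and 20.4% and 2.99% of all genes had a DP and an iNKT peak. With 30 kb upstream and 5 kb downstream, 39.2% and 5.72% of all genes did, and with 100 kb on either side 65.0% and 16.9%. At a score of 100 or more, 2 iNKT peaks were left, 2 of them overlapped a DP peak, and the shares of genes were 42.2% and 4.47%. At 200 or more, 19 DP peaks and 0 iNKT peaks were left, 0 overlaps followed, and the shares were 31.7% and 1.75%. Counting peaks only where a member has the nearest start site left 2 iNKT peaks. An E-box was found in 28 of the DP peaks over the whole peak, against 91.9% of all DP peaks, and in the central 100 bp in 10 of the 34, against 38.3% of all DP peaks.

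Measured to the nearest transcript start of the gene, the Cd247 site at 55.8 kb lay upstream, at -13702 bp for the DP peak and -13712 bp for the iNKT peak, so the direction turned because a further annotated transcript starts downstream of it. By this measure the Cd247 start peak lay at 590 bp, the Cd247 peak at 14.4 kb at 14319 bp, and the iNKT peaks at Atp5l and in Ube4a at 49956 and 16248 bp from Cd3g. From the RefSeq start sites, an alternative chosen after seeing the data, the Ptcra start peak lay at -25 bp and the Cd3e start peak at 1054 bp. Apart from the peak counts given above, under the windows, score minimum and counting rules tried the number of DP peaks ranged from 23 to 49 and that of iNKT peaks from 3 to 4.

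No paired analysis was possible because each cell type had 1 E2A library. For the same reason leaving out a replicate could not be tried. The unknown depth limits what a missing iNKT peak means.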
